A study of Mus musculus with 6 samples.

Results

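The 10 genes described here encode enzymes that make and recycle glutathione, serve the thioredoxin and peroxiredoxin system and supply the NADPH that both draw on, together with 2 further classical targets of the transcription factor NRF2. They are Gclc, Gclm, Gss, Gsr, Txnrd1, Srxn1, Nqo1, Hmox1, G6pdx and Me1, taken as the rows of the deposited table with exactly these symbols, and all 10 were found among its 16217 genes. RNA came from cells labelled Hepa1-6, the name of a mouse hepatoma line, carrying a lentivirus with a short hairpin RNA and selected with puromycin. The shERO1A line (3 libraries, called KD1, KD2 and KD3 after the table) carried a hairpin against Ero1a, and the shNC line (3 libraries, NC1, NC2 and NC3) a control hairpin; no further treatment, time or genotype is given. Each arm is a single stable line, so the loss of Ero1a and any other difference between these lines cannot be told apart in what follows.

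Glutathione and thioredoxin are the main thiol reducing systems of the cytosol. Glutamate-cysteine ligase and glutathione synthetase build glutathione, glutathione reductase and thioredoxin reductase return the oxidised forms to the reduced state, and both reductases draw on NADPH from the pentose phosphate pathway and malic enzyme. NRF2 is held low by KEAP1. When released by electrophiles or oxidants, NRF2 binds antioxidant response elements of its target genes together with a small MAF protein. Ero1a itself passes electrons from protein disulfide isomerase to oxygen in the endoplasmic reticulum, which yields hydrogen peroxide.

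The letters of the antioxidant response element core, TGACNNNGC, were searched on both strands of the promoter windows of RefSeq (build GRCm38.p6, from 250 bases before to 50 after each annotated start), because all 10 genes are known as NRF2 targets. Windows were held for 7 of the 10 genes, all but Gclc, Gsr and Hmox1. The core was present in at least 1 window of 5 of these 7, namely Me1, G6pdx, Gclm, Srxn1 and Txnrd1, and in 5 of their 10 windows, where 12.4% of all 32851 windows and 14.0% of 27025 genes held it. No match was found in the windows of Gss and Nqo1, which says only that these letters are not in those stretches. The sequences are given in gene orientation with the matching letters in capitals, whole for Me1 and G6pdx, which were lower in shERO1A, and as 60 bases for the others.
Me1, chr9:86695865-86696164, minus strand: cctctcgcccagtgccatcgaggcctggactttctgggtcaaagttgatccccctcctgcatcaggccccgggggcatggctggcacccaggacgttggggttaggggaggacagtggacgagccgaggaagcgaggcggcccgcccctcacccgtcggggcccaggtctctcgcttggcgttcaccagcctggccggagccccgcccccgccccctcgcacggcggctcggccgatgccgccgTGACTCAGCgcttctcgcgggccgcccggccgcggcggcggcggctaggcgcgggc
G6pdx, chrX:74428831-74429130, minus strand: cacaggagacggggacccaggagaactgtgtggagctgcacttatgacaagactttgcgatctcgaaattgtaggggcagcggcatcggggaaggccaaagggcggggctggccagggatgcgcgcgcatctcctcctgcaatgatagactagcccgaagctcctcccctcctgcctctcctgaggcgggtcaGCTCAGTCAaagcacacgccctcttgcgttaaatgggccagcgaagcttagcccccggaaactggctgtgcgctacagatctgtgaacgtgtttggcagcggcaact
Gclm, chr3:122245398-122245457, plus strand: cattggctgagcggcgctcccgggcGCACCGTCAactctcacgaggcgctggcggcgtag
Srxn1, chr2:152105514-152105573, plus strand: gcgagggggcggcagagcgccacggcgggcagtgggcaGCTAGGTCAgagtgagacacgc
Txnrd1, chr10:82859089-82859148, plus strand: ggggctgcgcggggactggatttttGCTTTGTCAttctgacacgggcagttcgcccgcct
In Me1 the match begins 6 bases before the annotated start of the printed window and reads TGACTCAGC on the gene's own strand. It therefore also holds TGACTCA, the letters of an AP-1 site, which were present in 5.20% of all windows. The other Me1 window, chr9:86687228-86687527, held no match. The other 4 matches lie on the opposite strand and read TGACTGAGC in G6pdx (57 bases before the start), TGACGGTGC in Gclm (134 bases before), TGACAAAGC in Txnrd1 (92 bases before, in 1 of its 3 windows) and TGACCTAGC in Srxn1 (28 bases after). The Srxn1 window holds TGACTCA at 2 further places. A match is a description of the letters, and binding was not measured.

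Between 38290505 and 39646829 reads per library lay behind the table, and values are in FPKM, reads per kilobase of gene and per 1e6 reads of the library. KD3 stood apart. The median absolute difference between libraries on the log2(FPKM + 1) scale was 0.06 within shNC and between KD1 and KD2, but 0.14 and 0.13 between KD3 and these, and KD3 was higher than KD1 and KD2 among the shortest 2060 genes tested (median log2 difference 0.18) and lower among the longest 2058 (-0.11). Results that rest on KD3 are therefore given with and without it. Ero1a was at 40.3% of its shNC level in shERO1A, and at 40.1% without KD3. Nothing in the labels says that libraries came from separate cultures, so the spread behind every p-value may be technical.

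The cells are called by their label here, and some markers of both liver and intestinal epithelium were present while others were absent. Of 18 hepatocyte and fetal liver markers, 12 were in the table, with Krt8 and Krt18 at 948 to 1281 FPKM, Trf, Hnf4a, Apob and Foxa2 at 21.6 to 44.3 and Afp and Apoe at 0.672 to 3.14, while Apoa2, Ambp and Igf2 had means below 1 FPKM. Of 11 markers of intestinal epithelium, 8 were in the table. Krt19, Cdh17, Krt20 and Tspan8 were at 66.7 to 258.5 FPKM and Cdx2 and Vil1 at 2.23 to 7.12. Lgals4 was at 0.119 to 1.64 FPKM and Muc13 at or below 0.105. Absent were Alb, Apoa1, Ttr, Ahsg, Serpina1a and Fgb of the hepatocyte list and Cdx1, Cldn7 and Epcam of the intestinal list. The sums of both lists were lower in shERO1A with no overlap, though not every marker was. The hepatocyte sum was 2572 to 2633 FPKM in shNC and 2072 to 2266 in shERO1A. It was mostly Krt8 and Krt18, whose means went from 1260 to 995 and from 1179 to 1038 FPKM. Of 9 hepatocyte markers tested, 3 were called lower with limma, where 8.23% of all genes were. They were Hnf4a (80.6% of shNC, in all 12 alternatives) and Trf and Krt8 (in 6 and 9 of 12). The intestinal sum was 758 to 763 FPKM in shNC and 596 to 625 in shERO1A. Its largest fall was in Krt19, from 257 to 116 FPKM, while Krt20 and Cdh17 were at 111% and 103% of shNC. Of 7 intestinal markers tested, 4 were called lower, against the same 8.23% of all genes. Krt19 (45.2% of shNC), Cdx2 (52.6%), Vil1 (55.1%) and Tspan8 (69.6%) were each lower in all 12 alternatives. No marker of either list was called higher with all libraries (9.48% of all genes were). Without KD3, 1 intestinal marker, Krt20, was called higher (14.8% of all genes). Summed immune and fibroblast markers stayed at or below 3.48 and 1.35 FPKM in every library. The endothelial sum, 9.97 to 10.7 in shNC and 17.9 to 18.95 in shERO1A, was nearly all Cdh5, which was called higher, and Pecam1, Kdr and Vwf were each at or below 0.151 FPKM. The part of these marker changes in the results on the 10 genes was not tested.

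All 10 genes passed the filter of a mean of 1 FPKM and were tested among 10296 genes with limma on log2(FPKM + 1), with Benjamini-Hochberg adjustment over all of them. In shERO1A, Gclc, Me1 and G6pdx were lower at an adjusted p under 0.05 and no member was higher. Over all genes, 17.7% were called at this adjusted threshold, 9.48% as higher and 8.23% as lower. At an unadjusted limma p under 0.05, 5 members were lower and 0 higher, against 1497 and 1809 of all 10296 genes. With limma-voom on recovered reads and by the q of the authors' deposited table, 4 members were lower, Gsr besides these 3 (10.1% and 10.2% of all genes), and 0 were higher (8.95% and 9.69% of all genes). The median log2 change was -0.16 over the 10 genes and 0.01 over all genes tested. The groups did not overlap in 5 members with lower shERO1A values (Gclc, Gclm, Gsr, G6pdx and Me1; 18.5% of all genes) and in 1 with higher values (Txnrd1; 21.5% of all genes). Without KD3, 6 members were called lower, with Gclm, Gss and Gsr added, where 12.9% of all genes were called lower, and 0 were higher (14.8% of all genes). In bulk RNA, fewer cells with a transcript and less transcript per cell cannot be told apart.

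**Figure D1:**
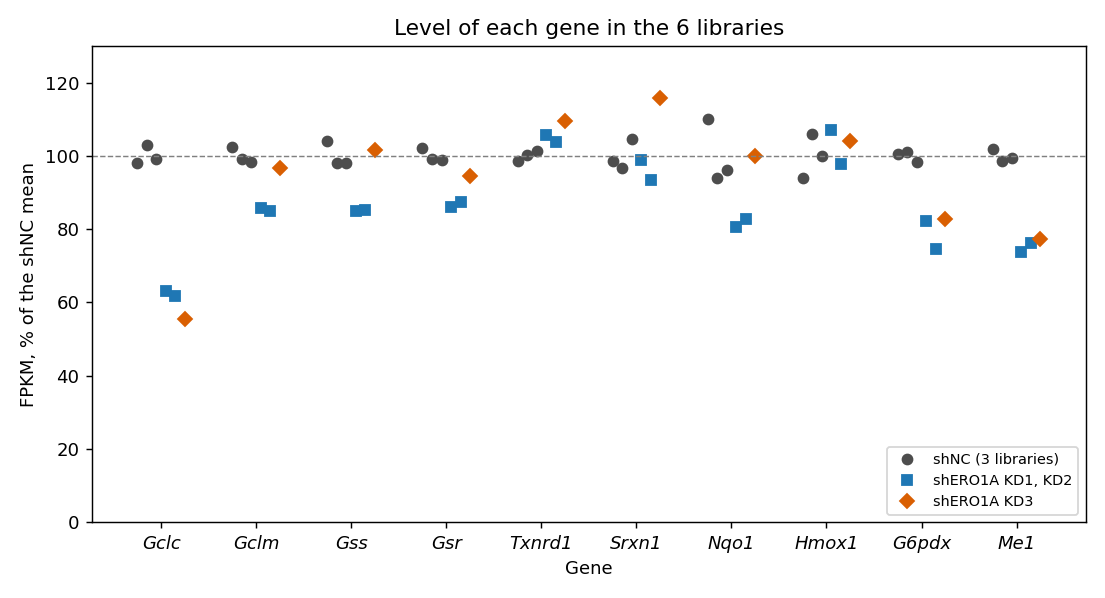
Level of each of the 10 genes in each library, as FPKM in percent of that gene's shNC mean (vertical axis, from 0); circles are shNC, squares KD1 and KD2, diamonds KD3. Gclc lies near 60% in all 3 shERO1A libraries, Me1 and G6pdx near 76% and 80%, and in Gclm, Gss, Gsr, Srxn1 and Nqo1 KD3 sits above KD1 and KD2.

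Gclc showed the largest change of the 10. It encodes the catalytic subunit of glutamate-cysteine ligase, the rate-limiting enzyme of glutathione synthesis. Gclc (Entrez 14629) was measured at 47.0, 49.4 and 47.6 FPKM in NC1, NC2 and NC3, against 30.3, 29.6 and 26.6 FPKM in KD1, KD2 and KD3. All shERO1A libraries were far below all shNC libraries, with KD3 the lowest. The mean fell to 60.1% of shNC, from 48.0 ± 1.24 FPKM to 28.9 ± 1.98 FPKM (SD, n = 3) (log2 change -0.72, SE 0.06, limma adjusted p = 0.000187). It was called as lower in all 12 alternative analyses, with adjusted p up to 0.00248, and without KD3 it was at 62.4% of shNC.

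Gclm encodes the modifier subunit, which binds the catalytic subunit and raises its affinity for glutamate. Its level was 28.1, 27.2 and 27.0 FPKM in shNC and 23.5, 23.3 and 26.5 FPKM in shERO1A. KD1 and KD2 lay well under the controls, and KD3 lay just under them. The mean was 27.4 ± 0.605 in shNC and 24.5 ± 1.80 FPKM in shERO1A (SD, n = 3; log2 change -0.16, 95% confidence interval -0.30 to -0.03), which did not pass the test over all genes (limma adjusted p = 0.099). Without KD3 the level was 85.4% of shNC (adjusted p = 0.00278), while KD3 alone was at 96.7%.

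The ratio of the ligase subunits was lower in the shERO1A libraries. The ratio of Gclc to Gclm, both in FPKM, was 1.67, 1.82 and 1.76 in NC1, NC2 and NC3 and 1.29, 1.27 and 1.002 in KD1, KD2 and KD3. All 3 shERO1A libraries had a lower ratio than any shNC library, with KD3 lowest. The difference in mean log2 ratio, shERO1A minus shNC, was -0.57 (2-sided exact permutation test over 6 libraries, p = 0.1, the smallest p that 3 against 3 allow), and it was -0.45 without KD3.

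**Figure D2:**
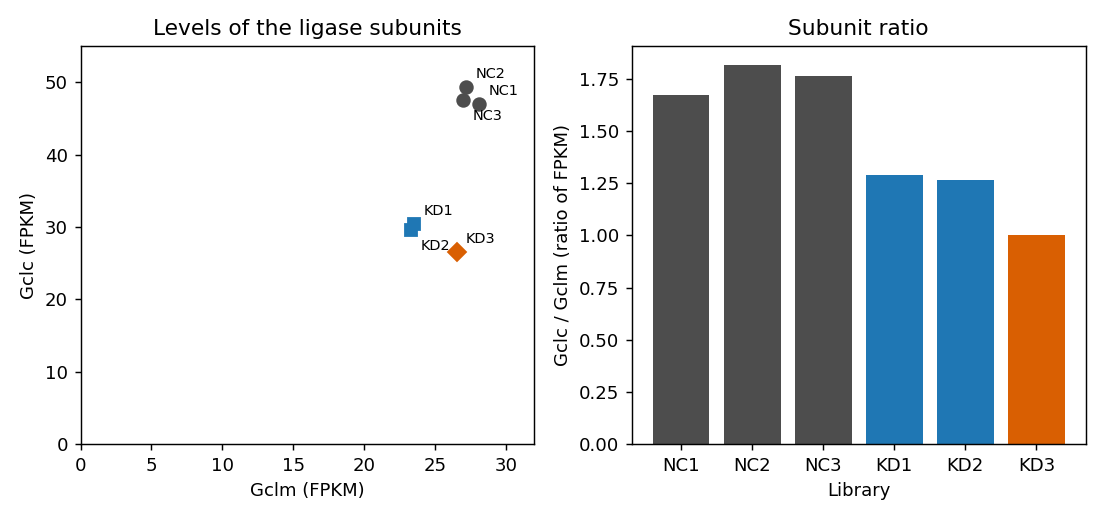
Left, Gclc against Gclm in FPKM, 1 point per library; right, their ratio per library. The shNC libraries (grey) have ratios of 1.67 to 1.82, KD1 and KD2 (blue) 1.29 and 1.27, and KD3 (orange) 1.002.

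Gss encodes glutathione synthetase, which adds glycine in the final step. NC1, NC2 and NC3 held 41.6, 39.1 and 39.1 FPKM of it, against 34.0, 34.0 and 40.6 FPKM in KD1, KD2 and KD3. KD1 and KD2 were below every control, but KD3 lay within the control range, so the groups overlapped. With all libraries the means were 39.9 ± 1.40 and 36.2 ± 3.79 FPKM (SD, n = 3; log2 change -0.14, 95% confidence interval -0.31 to 0.03, limma adjusted p = 0.226). Without KD3 it was called lower, at 85.1% of shNC (adjusted p = 0.00289), whereas KD3 alone was at 102% of shNC.

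Gsr encodes glutathione reductase, which returns glutathione disulfide to glutathione, and was the most abundant of the 10 per length. Its level was 156, 152 and 151 FPKM in shNC and 132, 134 and 145 FPKM in shERO1A. The groups did not overlap, and KD3 was the shERO1A library nearest to the controls. The mean was 153 ± 2.73 and 137 ± 7.02 FPKM (SD, n = 3; log2 change -0.16, SE 0.05), with a limma adjusted p of 0.0626 on all libraries. Gsr was called lower with limma-voom on the recovered reads (adjusted p = 0.0316), by the authors' deposited table (their q = 0.034) and without KD3 (86.7% of shNC, adjusted p = 0.000899).

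The genes of the thioredoxin arm did not pass the test. Txnrd1 encodes the cytosolic selenoprotein thioredoxin reductase, which is served by the same NADPH. The control libraries held 55.6, 56.5 and 57.2 FPKM, against 59.6, 58.6 and 61.8 FPKM in KD1, KD2 and KD3. All shERO1A libraries lay above all shNC libraries by a narrow margin. The log2 change was 0.09 (95% confidence interval -0.01 to 0.18, limma adjusted p = 0.193), and over 12 alternatives the adjusted p stayed between 0.142 and 0.418. Srxn1 encodes sulfiredoxin, which repairs overoxidised peroxiredoxins. Its values were 12.4, 12.1 and 13.1 FPKM in shNC and 12.4, 11.7 and 14.5 FPKM in shERO1A, so the groups overlapped and KD3 was the highest of all libraries (log2 change 0.03, 95% confidence interval -0.15 to 0.22, adjusted p = 0.81). The sign of this change turned without KD3 (-0.05, adjusted p = 0.504).

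Nqo1 and Hmox1, the most used reporters of NRF2 activity, also did not pass. Nqo1 encodes a quinone reductase and was the lowest of the 10, with 422 to 583 reads per library, a counting error of up to 4.87%. Its level was 4.48, 3.83 and 3.91 FPKM in the control libraries, against 3.28, 3.37 and 4.07 FPKM in KD1, KD2 and KD3. KD1 and KD2 were below every control and KD3 was among the controls (log2 change -0.15, 95% confidence interval -0.35 to 0.05, limma adjusted p = 0.283; without KD3 -0.23 and 0.0525). Hmox1 encodes heme oxygenase 1, which opens the heme ring. Its level was 23.1, 26.0 and 24.6 FPKM in shNC and 26.2, 24.0 and 25.5 FPKM in shERO1A, with the groups interleaved (log2 change 0.04, 95% confidence interval -0.09 to 0.18, adjusted p = 0.663). Its sign turned without NC1 and with the gene length trend removed, with adjusted p of 0.994 and 0.933.

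Both NADPH-producing members were lower. Me1 encodes the cytosolic malic enzyme, which makes NADPH while turning malate into pyruvate and is also known as a gene of fat synthesis. NC1, NC2 and NC3 held 79.1, 76.5 and 77.2 FPKM of Me1 (Entrez 17436), against 57.2, 59.1 and 60.02 FPKM in KD1, KD2 and KD3. The groups were widely separated and each was tight. The mean fell to 75.7% of shNC, from 77.6 ± 1.33 FPKM to 58.8 ± 1.45 FPKM (SD, n = 3) (log2 change -0.40, SE 0.04, limma adjusted p = 0.000644).

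G6pdx encodes glucose-6-phosphate dehydrogenase, the entry enzyme of the pentose phosphate pathway. The control libraries held 26.3, 26.4 and 25.7 FPKM of G6pdx (Entrez 14381), against 21.5, 19.5 and 21.6 FPKM in KD1, KD2 and KD3. No shERO1A library reached the lowest control. The mean fell to 79.9% of shNC, from 26.1 ± 0.390 FPKM to 20.9 ± 1.22 FPKM (SD, n = 3) (log2 change -0.31, SE 0.05, adjusted p = 0.00593). Me1 and G6pdx were called as lower in all 12 alternatives, with adjusted p up to 0.00777 and 0.0361, and without KD3 they were at 74.9% and 78.4% of shNC.

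**Figure D3:**
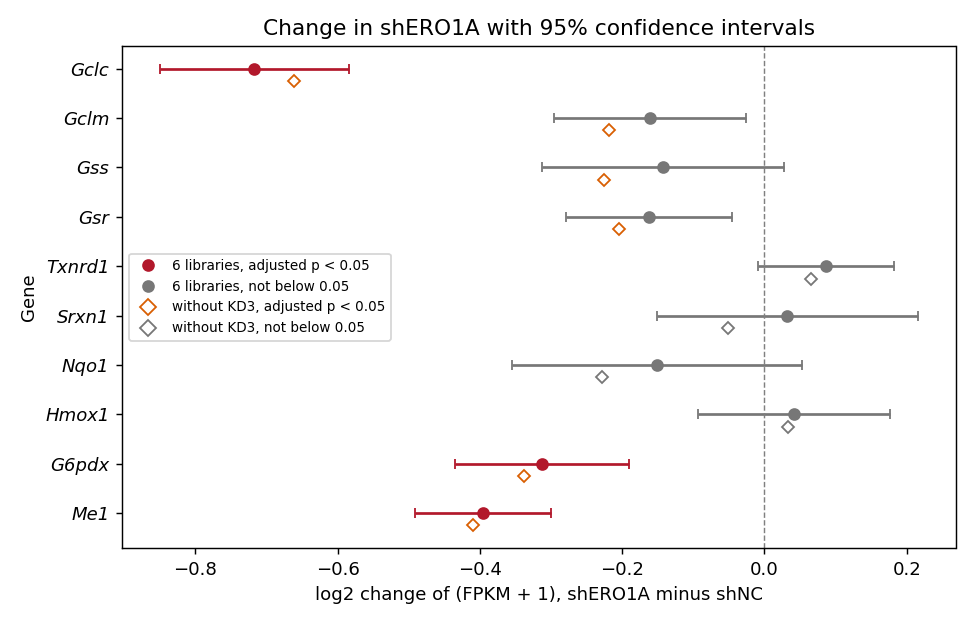
Change of each gene in shERO1A on the log2(FPKM + 1) scale (horizontal axis), with 95% confidence intervals from limma on 6 libraries (circles) and the estimate without KD3 (open diamonds); colour marks an adjusted p under 0.05. Gclc (-0.72), Me1 (-0.40) and G6pdx (-0.31) are called with all libraries, and Gclm, Gss and Gsr only without KD3 among these 2 fits.

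KD3 did not shift the members alike. Its log2 difference from the mean of KD1 and KD2 was 0.29 for Nqo1, 0.27 for Srxn1, 0.25 for Gss, 0.18 for Gclm and 0.13 for Gsr. It was between 0.02 and 0.08 for Txnrd1, Hmox1, Me1 and G6pdx, and it was -0.17 for Gclc. With each library's trend on gene length removed, an alternative chosen after seeing the data, 6 members were called lower (11.1% of all genes were), Gclm at adjusted p = 0.013, Gss at 0.0433 and Gsr at 0.00633 with limma. What set KD3 apart was not tested.

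The order of the 10 genes by mean level per length was led by Gsr (rank 446 of 10296 tested genes), followed by Me1 (987), Txnrd1 (1160), Gclc (1899), Gss (1911), Gclm (2756), Hmox1 (2861), G6pdx (3007), Srxn1 (4740) and Nqo1 (8164). The sum of their FPKM was 467 to 474 in shNC and 397 to 426 in shERO1A, so that the groups did not overlap. Gsr made up the largest part of the sum, and no test was made of it.

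Of 16 NRF2 regulators tested, 1 was higher and 0 were lower with limma, where 9.48% of all genes were higher and 8.23% lower, so these counts do not set the regulators apart. The counts were the same with limma-voom and in the authors' deposited table. At an unadjusted limma p under 0.05, 1 was higher and 1 lower, where 1809 and 1497 of all 10296 genes were. Nfe2l2, which encodes NRF2, had 85.1, 84.8 and 83.4 FPKM in the control libraries, against 79.6, 82.0 and 78.0 FPKM in the knockdown libraries (log2 change -0.08, 95% confidence interval -0.17 to 0.02, limma adjusted p = 0.226). Every shERO1A value was below every shNC value, by a small margin. Keap1, the adaptor that hands NRF2 to a ubiquitin ligase, was at 93.8% of shNC (adjusted p = 0.288), and Bach1, a repressor that competes for the same elements, was at 95.8% (adjusted p = 0.646). Sqstm1, the p62 autophagy receptor that binds KEAP1, rose from 83.0 ± 1.95 to 102 ± 3.67 FPKM (SD, n = 3; log2 change 0.30, adjusted p = 0.00393), and was higher in all 12 alternatives. Without KD3, 3 regulators were higher and 2 lower, near the shares of all genes in that fit (14.8% and 12.9%).

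Among 20 tested genes of glutathione supply and use, 2 rose and 0 fell with limma, where 9.48% and 8.23% of all genes did, so the number of rises is near the background. Over these 20 genes the counts were the same with limma-voom and by the authors' deposited q. At an unadjusted limma p under 0.05, 3 were higher and 0 lower, where 1809 and 1497 of all 10296 genes were. Ggct is the gamma-glutamylcyclotransferase that cleaves gamma-glutamyl amino acids downstream of glutathione. It rose 2.35-fold, from 32.3 ± 0.222 to 75.9 ± 7.56 FPKM (SD, n = 3) (log2 change 1.20, limma adjusted p = 4.39e-05). All 3 shERO1A values, 72.1, 70.9 and 84.6 FPKM, were more than any control. Lap3, a leucine aminopeptidase that can split cysteinyl-glycine, rose from 38.8 ± 0.206 to 48.8 ± 4.65 FPKM (adjusted p = 0.0146), a call lost without NC1, NC2 or NC3 (adjusted p = 0.063, 0.0597 and 0.0646) and as low as 0.0008 over the alternatives. Slc7a11, the cystine transporter subunit, was at 93.8% of shNC (adjusted p = 0.338) and Gpx4, which reduces lipid peroxides with glutathione, at 117% (adjusted p = 0.341), with 146% in KD3 alone and 102% without it. Without NC1, NC2 or NC3, 1 gene of the list was called higher each time, where 490, 482 and 492 of all 10296 genes were. Without KD3, 2 of the list were lower (12.9% of all genes).

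Of 23 tested thioredoxin and peroxiredoxin genes, 0 rose and 1 fell with limma (9.48% and 8.23% of all genes). At an unadjusted limma p under 0.05, 4 were higher and 3 lower, where 1809 and 1497 of all 10296 genes were. Limma-voom and the authors' deposited table each called 3 as higher, near their shares of all genes (8.95% and 9.69%). Txn1, thioredoxin itself, had 321, 319 and 313 FPKM in the control libraries, against 345, 371 and 429 FPKM in the knockdown libraries (adjusted p = 0.0618). The groups did not overlap, and without KD3 Txn1 was called higher at 113% of shNC (adjusted p = 0.0064). Prdx1, a peroxiredoxin and NRF2 target, was at 102% of shNC (adjusted p = 0.869), with 118% in KD3 alone and 94.6% without it (adjusted p = 0.0489). Txnip, which binds and inhibits thioredoxin, was at 92.4% (adjusted p = 0.137). Sesn2, a stress-induced gene of the sestrin family, fell from 16.1 ± 0.753 to 12.2 ± 0.441 FPKM (adjusted p = 0.00286). Without KD3, 3 genes were higher and 4 lower, where 14.8% and 12.9% of all genes were.

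Of 16 other genes of NADPH supply, 4 fell and 1 rose with limma, against 8.23% and 9.48% of all genes. Idh1, the cytosolic isocitrate dehydrogenase that makes NADPH, fell from 32.4 ± 0.777 to 22.6 ± 0.608 FPKM (SD, n = 3; log2 change -0.50, limma adjusted p = 0.000287). In the pentose phosphate pathway, Pgd, the later dehydrogenase of the pathway, was at 86.5% of shNC (adjusted p = 0.0149) and Tkt, the transketolase, at 87.5% (adjusted p = 0.0179), while Pgls, the lactonase between G6pdx and Pgd, rose to 123% (adjusted p = 0.0299). Me2, a mitochondrial malic enzyme, was at 86.4% (adjusted p = 0.0311). Only Idh1 of these 5 stayed called in all 12 alternatives. A place in this list does not mean that the enzyme makes NADPH, and NADPH was not measured. Without NC1, NC2, NC3 or KD2, 1 gene of the list was lower each time, where 484, 473, 460 and 577 of all 10296 genes were. Without KD3, 6 of the list were lower (12.9% of all genes). The highest adjusted p over the alternatives was 0.0853 for Pgd, 0.0976 for Tkt, 0.116 for Pgls and 0.119 for Me2, and the lowest was 0.000332, 0.000261, 0.00376 and 0.00632.

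Of 30 tested genes in a list of other NRF2 targets, mostly of drug metabolism and iron, 11 fell and 3 rose with limma, against 8.23% and 9.48% of all genes. Their median log2 change was -0.11. Ephx1, a microsomal epoxide hydrolase, fell from 110 ± 0.648 to 56.1 ± 1.18 FPKM (SD, n = 3; adjusted p = 1.24e-05). Aldh3a1, an aldehyde dehydrogenase, fell from 21.5 ± 0.432 to 11.6 ± 0.770 FPKM (adjusted p = 8.77e-05). The glutathione transferase genes Gsta4 and Gsta1 were at 46.2% and 45.4% of shNC (limma adjusted p = 0.00887 and 0.0275). They had only 59 to 214 and 37 to 153 reads per library, a counting error of up to 13.0% and 16.4%. Gsta1 has close paralogs with which it may share reads. The call of Gsta1 was lost in 5 of 12 alternatives, with adjusted p between 0.00751 and 0.103. The number of falls was 8, 6 and 7 without NC1, NC2 and NC3, where 484, 473 and 460 of all 10296 genes fell. With all libraries 847 of all genes did. Without KD3, 14 genes of the list fell (12.9% of all genes). Rises numbered 0 without NC1 or NC2, where 490 and 482 of all genes rose. These lists were written with earlier results of these data known.

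**Figure D4:**
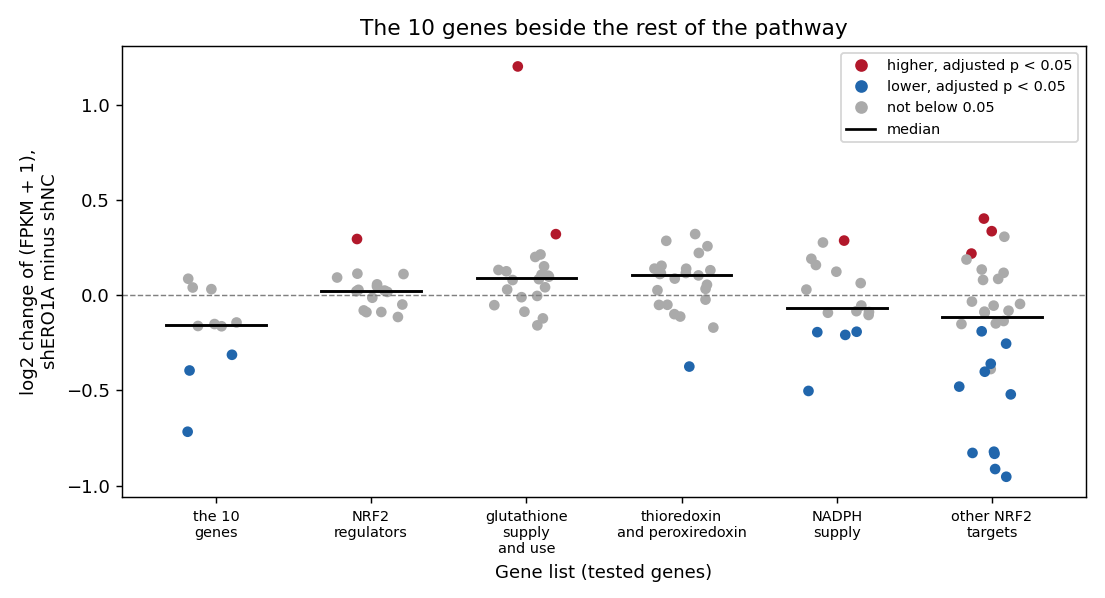
Log2 change of (FPKM + 1) in shERO1A for every tested gene of the 10 and of the 5 pathway lists; 1 point per gene, red higher and blue lower at a limma adjusted p under 0.05, bars at the medians (-0.16 for the 10 genes and -0.11 for the other NRF2 targets). The highest point is Ggct (1.20) and the lowest is Ephx1 (-0.95).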

How the data were processed

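The members and gene lists were chosen with earlier results of these data known. RNA was extracted with TRIzol, per the labels' protocols. The submitters' processing notes name HISAT2 2.1.0, HTSeq 0.11.2 and mm39, and an annotation or a strand setting is not given in the sources used here. A deposited table holds 1 FPKM column per library, with no unit in its header and recognised from its values. The deposited base means are, per the file headers, a signal from DESeq2: counts over size factors, averaged per group. The authors' fold change is given as a ratio and on the log2 scale, with their p-value and q-value. NC1 to NC3 match sample titles; KD1 to KD3 name only the group and were not paired.

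The 10296 of 16217 genes whose mean reached 1 FPKM were fitted as log2(FPKM + 1) with limma 3.58.1 (R 4.3.3, intensity trend, no covariate), with Benjamini-Hochberg adjustment and a threshold of 0.05. Changes on this scale understate those of low genes, and percentages are of mean FPKM. Counts by the authors' q cover only the genes that passed this filter, and genes below it were left out of them. Reads were recovered from FPKM and base means, with 100% of 97302 values within 0.01 of a whole number. The fit was tested on reads simulated from the shNC means, without a library set apart like KD3 or a gene length trend. That test therefore does not cover these features of the data. Alternatives were a pseudocount of 0.1, no filter, median-of-ratios scaling, limma-voom with TMM, the authors' q, each library left out and, added after seeing the data, removal of each library's lowess trend (span 0.3) on gene length. Named genes were Ero1a, the 10 members, 11 fixed pathway genes and up to 4 called genes with the largest change per list. Single cell type markers (1 is not reported here) were named after their values were seen, as were the members whose sign turned.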

Additional observations from a re-analysis of the deposited data

How the results depend on the processing

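Across 12 alternatives Gclc, Me1 and G6pdx kept their call, and members called higher numbered 0 in each. With the gene length trend removed, 6 members were called lower, where 11.1% of all genes were. So were 1 NRF2 regulator, 1 gene of glutathione supply and use and 2 genes of the thioredoxin and peroxiredoxin list. In that last list 3 were higher, where 1084 of all 10296 genes were. Limma-voom and the authors' q also called 3 of it higher (8.95% and 9.69% of all genes). With limma-voom and with median-of-ratios scaling 2 of it were lower, where 1037 and 888 of all genes were. With no filter, 0 genes of NADPH supply were higher, where 887 of all 16217 genes were. The cause was not tested.

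With single libraries left out, genes called over the table ranged from 482 to 1521 higher and from 460 to 1332 lower, members called lower from 3 to 6, NRF2 regulators from 1 to 3 higher and 0 to 2 lower, and glutathione supply and use from 1 to 2 higher and 0 to 2 lower. The thioredoxin and peroxiredoxin list ranged from 0 to 4 higher and 1 to 4 lower, NADPH supply from 0 to 3 higher and 1 to 6 lower, and other NRF2 targets from 0 to 4 higher and 6 to 14 lower. The log2 change of Prdx1 was -0.080 without KD3 and lay between -0.080 and 0.092 with single libraries left out. The log2 Gclc to Gclm difference lay between -0.63 and -0.45. No paired analysis was possible because the columns of the shERO1A libraries match no numbered sample. Counting error per library was at most 4.87% among the members, in Nqo1.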
